A study of Mus musculus with 51 samples.

Results

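H3K4me3 at promoters was compared between the first and the last sorted population of meiotic prophase, leptonema and diplonema. Peaks of the 4 lists (2 experiments of each stage) were merged where they overlapped or adjoined. Of the 17888 merged sites, 11902 (66.5%) lay within 500 bp of an annotated transcription start site (TSS), and a gene was called in a list when that list had a peak at such a site of the gene. A gene called in both leptonema lists and in no diplonema list was leptonema-only, and the reverse pattern made a gene diplonema-only. There were 851 leptonema-only genes, 5.98% of the 14241 genes called in any of the 4 lists and 1.66% of the 51229 annotated genes on chromosomes 1 to 19. There were 944 diplonema-only genes, 6.63% of the called genes and 1.84% of all genes. A further 6150 genes were called in all 4 lists and are used below as the reference for promoters that kept a peak. Since these calls define the classes, the counts describe the lists and were not tested.

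The nuclei came from whole testis of adult male C57Bl/6J mice of wild-type genotype, and no group was treated or carried an allele. Fixed nuclei with the DNA content of replicated cells and the axis protein SCP3 were sorted by flow cytometry. Leptotene nuclei were gated on STRA8 in a sort of their own, and diplotene nuclei on the testis histone H1t with a low level of the synaptonemal protein SCP1. The sorted populations were not fully pure. The 4 lists used the EpiCypher antibody against H3K4me3 on sonicated chromatin. Besides these, 6 H3K4me3 lists of zygonema, early pachynema and late pachynema, 5 lists made with an Abcam antibody that binds H3K4me2 and H3K4me3 (experiment 2) and 5 H3K9ac lists (experiment 1) were looked up at the same sites. That makes 4 of the 51 samples of the series for the comparison and 20 with a peak list in all. No label says that experiments 1 and 2 came from separate animals, so the spread between lists may be technical. A peak that is present in one population and not in another can mean more marked nuclei or more mark per nucleus, and a peak list cannot tell these apart.

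Trimethylation of lysine 4 on histone H3 marks the start sites of active and poised genes, and most promoters rich in CpG dinucleotides carry it in most tissues. Male germ cells enter prophase after a final round of DNA replication, make and repair DNA double-strand breaks, and by late pachynema transcribe many genes whose products are used only in spermatids and sperm. The transcription factors A-MYB (Mybl1) and RFX2 are known regulators of that later programme, and STRA8 of meiotic entry.

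The genes of the sorting proteins were examined first. Stra8 was leptonema-only, with peaks of 586 bp and 2065 bp in the leptonema lists of experiments 1 and 2 and none in the other 8 H3K4me3 lists. Sycp3, which encodes SCP3, had a peak in all 10 lists, from 493 bp to 2742 bp wide. Sycp1 had peaks in all lists but those of late pachynema and diplonema in experiment 1. Hist1h1t, the gene of H1t, had a site set by a peak of 258 bp in leptonema of experiment 1, which did not cover the start. At this site zygonema of experiment 2 had a peak of 747 bp and no other H3K4me3 list had one. A pachynema peak at the start but outside this site would not be counted. Neither diplonema list had a peak within 500 bp of the start, although H1t was part of the diplotene gate. No marker gene of somatic testis cells was in either class. Of 13 annotated Sertoli cell markers, 7 were called in some list, none in more than 1 list except Ctsl (both leptonema lists and 1 diplonema list). Of 10 Leydig cell markers 2 were called (Insl3 in 1 diplonema list and Nr5a1 in 1 list of each stage), and of 15 markers of peritubular, endothelial and macrophage cells none was.

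Some genes of meiotic entry, recombination and DNA replication were leptonema-only, and none in these 3 lists was diplonema-only. Among all protein-coding genes, 3.22% were leptonema-only and 2.7% diplonema-only (5.93% and 4.96% of those called in any of the 4 lists), and the counts below are to be read against these shares. Of 24 genes for meiotic entry and break formation, 4 (16.7%) were leptonema-only, 13 were called in all 4 lists and none was diplonema-only. Beside Stra8 these were Mei4 and Mei1, required for break formation, and Terb2, which tethers telomeres to the nuclear envelope. Mei4 peaks spanned 684 bp and 924 bp in the leptonema lists, and the other 8 lists had none. The leptonema peaks of Terb2 spanned 906 bp and 805 bp, and its zygonema peaks 263 bp and 500 bp. Mei1 measured 297 bp and 899 bp at leptonema and had a single later peak of 159 bp in late pachynema of experiment 2. Of the 4 genes, Terb2 and Mei1 had a peak in any of the 6 lists between the stages, and Stra8 and Mei4 had none.

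Of 34 strand exchange and crossover genes, 3 (8.82%) were leptonema-only, 17 were called in all 4 lists and none was diplonema-only. As 32 of the 34 were called in any list, the matching shares are 5.93% and 4.96% of called protein-coding genes. The counts are too few to set this list apart from those shares. At Dmc1, the gene of the meiotic recombinase, the leptonema peaks spanned 934 bp and 1093 bp, those of zygonema 622 bp and 181 bp, and no later list had one. Brca1, a repair factor, measured 1488 bp and 2016 bp at leptonema, 1368 bp and 234 bp at zygonema, 659 bp and 154 bp at early pachynema, and had no peak later. The nuclease gene Exo1 had peaks in the same 6 lists, from 186 bp to 718 bp. All 3 had peaks in both zygonema lists, unlike Stra8 and Mei4.

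Of 54 replication genes, 7 (13%) were leptonema-only, 23 were called in all 4 lists and none was diplonema-only. They were Mcm2 and Mcm5 of the replicative helicase, Mcm10, the primase gene Prim1, the polymerase genes Pold1 and Pole2, and Clspn of the replication checkpoint. Mcm5 had the widest peaks of the 7, 1014 bp and 1418 bp at leptonema, followed by 646 bp and 673 bp at zygonema and 914 bp and 545 bp at early pachynema. The other 6 had leptonema peaks between 164 bp and 893 bp. Within experiment 1, 25 of the 54 had a leptonema and no diplonema peak, and within experiment 2, 9. The diplonema list of experiment 1 was the shorter one (6645 peaks against 12071), and its part in the larger count was not tested. By the rule both counts include the 7 leptonema-only genes, so their shared direction is no separate evidence. The opposite pattern held for 0 and 1 genes of the list.

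The promoters of Stra8, Dmc1 and Mcm5 are printed here because these genes stand for the 3 groups and differ in their later course. Each is the RefSeq promoter of build GRCm38.p6, from 250 bases before the start to 50 after it, written 5′ to 3′ on the strand of the gene. Stra8 lies at chr6:34920698-34920997 (plus strand), Dmc1 at chr15:79605060-79605359 (minus strand) and Mcm5 at chr8:75109259-75109558 (plus strand). Capitals mark the E2F-type letters TTTGGCGC or TTTCCCGC on either strand.
Stra8: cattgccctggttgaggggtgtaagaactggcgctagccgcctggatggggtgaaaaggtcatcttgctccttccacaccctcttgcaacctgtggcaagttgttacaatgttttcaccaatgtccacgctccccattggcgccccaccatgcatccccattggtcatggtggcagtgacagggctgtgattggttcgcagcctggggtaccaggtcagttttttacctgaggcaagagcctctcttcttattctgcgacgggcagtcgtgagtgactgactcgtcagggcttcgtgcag
Dmc1: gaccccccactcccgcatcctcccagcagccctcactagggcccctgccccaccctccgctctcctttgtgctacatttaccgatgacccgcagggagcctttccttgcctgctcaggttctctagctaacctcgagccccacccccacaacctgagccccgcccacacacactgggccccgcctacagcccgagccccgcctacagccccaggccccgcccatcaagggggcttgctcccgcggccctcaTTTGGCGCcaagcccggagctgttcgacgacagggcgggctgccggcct
Mcm5: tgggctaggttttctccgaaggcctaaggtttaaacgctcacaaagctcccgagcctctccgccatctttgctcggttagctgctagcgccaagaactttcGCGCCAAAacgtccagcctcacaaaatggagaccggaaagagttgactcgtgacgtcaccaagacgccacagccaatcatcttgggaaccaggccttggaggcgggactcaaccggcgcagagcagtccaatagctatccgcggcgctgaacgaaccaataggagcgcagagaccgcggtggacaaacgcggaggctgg
Stra8 held no such letters and 10 CG pairs. Dmc1 held 1 match, which began 2 bases into the transcribed side (the start base counted as 1), and 18 CG pairs. Mcm5 held 1 match 149 bases before the start and 25 CG pairs.

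Smaller groups on the leptonema side were the following. The spermatogonial factors Sohlh2 and Dmrt1 were 2 of 29 spermatogonial genes, against 1 diplonema-only gene (Bcl6b) and 14 not called. Peaks at Dmrt1 spanned 1262 bp and 1658 bp at leptonema, then 890 bp and 328 bp at zygonema. Of 21 genes for H3K4 methyltransferases and demethylases, 4 (19%) were leptonema-only and 14 were called in all 4 lists. They were the methyltransferase genes Kmt2a, Setd7 and Smyd3 and the demethylase gene Kdm1b, and each had a peak in zygonema of experiment 1 and none in the 4 pachynema lists. Prdm9, the methyltransferase that marks recombination hotspots, was looked at after its values were seen and was called in all 10 lists, with 1049 bp and 1750 bp at leptonema against 167 bp and 489 bp at diplonema. Of 21 axis and synaptonemal complex genes, 1 was leptonema-only, 4930447C04Rik (a central element gene), and 13 were called in all 4 lists. The division gene Cdc25b, the ribosomal protein gene Rpl6 (1 of 87, with 46 in all 4 lists) and Cabyr of the sperm tail list were further single members.

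Genes of the acrosome and the sperm tail formed the largest listed groups on the diplonema side. Of 39 acrosome and fertilization genes, 11 (28.2%) were diplonema-only, none was leptonema-only, 4 were called in all 4 lists and 21 were not called. Of 73 sperm tail and motility genes, 22 (30.1%) were diplonema-only, 1 was leptonema-only, 10 were called in all 4 lists and 24 were not called. Within experiments 1 and 2 the counts with a diplonema and no leptonema peak were 12 and 11 for the acrosome list and 32 and 25 for the tail list. By the rule these include the 11 and 22 diplonema-only genes, so their shared direction is no separate evidence. The opposite pattern was seen for 1 acrosome gene and 2 tail genes in each experiment.

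The 11 acrosome genes were Acr (the protease acrosin), Acrbp (the acrosin-binding protein), Dpy19l2, Spata16, Crisp2, the metalloprotease genes Adam3 and Adam1b, the serine protease genes Prss21 and Prss39, and the actin-like genes Actl7b and Actl9. Acr had diplonema peaks of 1494 bp and 1287 bp, a late pachynema peak of 755 bp in experiment 2 and none in the other 7 lists. Actl9 had 2199 bp and 2777 bp in diplonema and 2033 bp in late pachynema of experiment 2. Prss39 (738 bp and 1149 bp) and Adam1b (756 bp and 1819 bp) had diplonema peaks and none in any of the other 8 lists. None of the 11 had a zygonema peak, 1 had an early pachynema peak (Spata16, 154 bp), and 9 had a peak in late pachynema of experiment 2. Of all diplonema-only genes, 4.56% and 7.42% had a peak in the zygonema lists of experiments 1 and 2, and 20.4% and 11.7% in early pachynema. In late pachynema of experiment 2 the share was 76.6%. The counts are too few to set the 11 apart from these shares.

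The 22 tail genes fell into several parts of the flagellum. Pgk2 and Ldhc encode germ cell forms of glycolytic enzymes and Pgam2 a form of phosphoglycerate mutase known from muscle and testis, and in experiments 1 and 2 the diplonema peaks spanned 779 bp and 1997 bp at Pgk2, 1486 bp and 1688 bp at Ldhc, and 1602 bp and 1934 bp at Pgam2. Ldhc also had peaks in early pachynema of experiment 1 (610 bp) and in both late pachynema lists (1161 bp and 1922 bp). The axonemal genes were Dnah1, Dnah17, Dnali1 and Dnaic2 (dynein arms), Spag6l, Spag16 and Spag17 (central apparatus), Rsph1 (radial spoke), Tekt1, Tekt3 and Tekt4 (tektins) and Cfap44, with diplonema peaks between 185 bp and 1481 bp. The ion transport genes were Catsperb, Catsperd and Catsperz of the sperm calcium channel and the exchanger gene Slc9c1. Odf4, Spata4 and Ppp3r2 completed the group. Rsph1 differed from the other 21 in having a peak in all 6 lists of zygonema and pachynema (471 bp to 807 bp) and only lacked one in leptonema. Of the 22 genes, 20 had a peak in late pachynema of experiment 2, 11 in late pachynema of experiment 1, 5 in each early pachynema list, and 1 and 2 in the zygonema lists. For the whole diplonema-only class the shares were 76.6% and 28.5% in late pachynema of experiments 2 and 1. They were 20.4% and 11.7% in early pachynema of experiments 1 and 2, and 4.56% and 7.42% in zygonema.

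**Figure D1:**
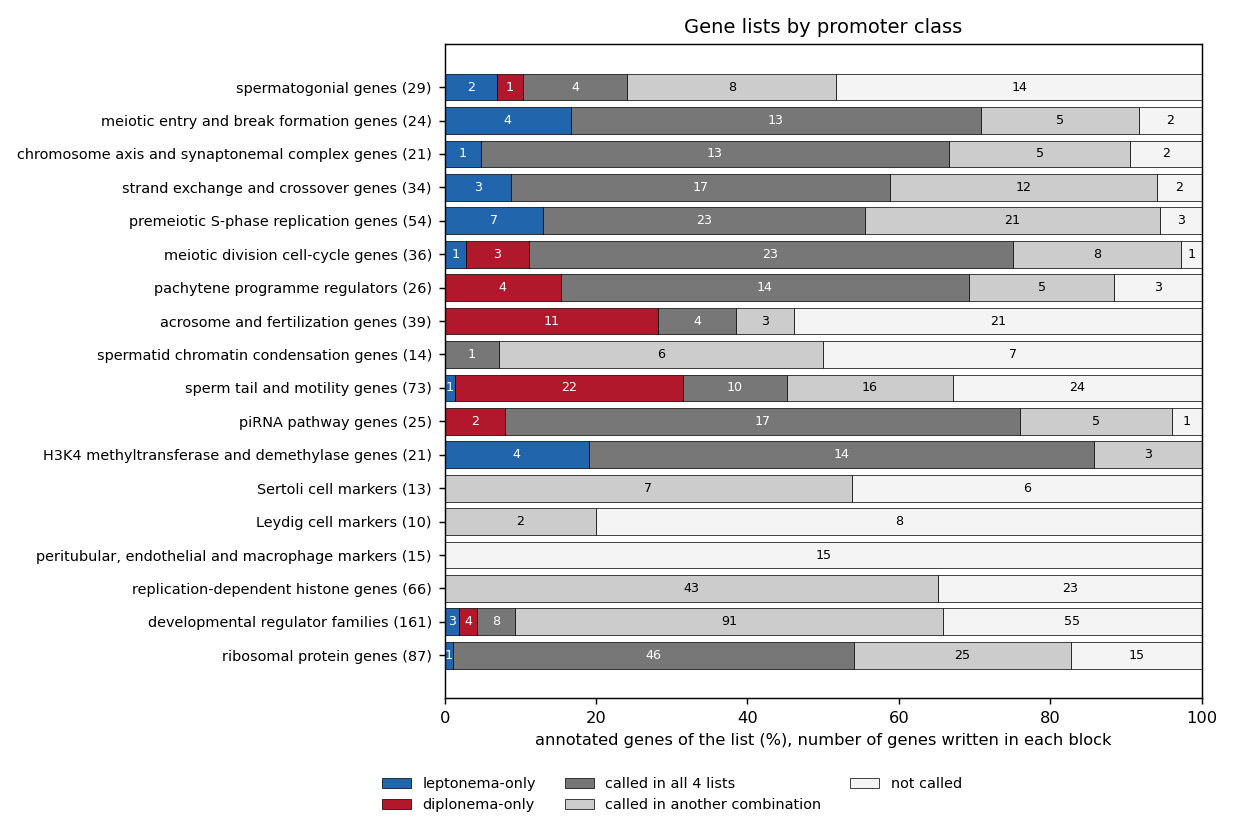
Share of each gene list (annotated genes in parentheses) by promoter class, with the number of genes written in each block. The diplonema-only block is 22 of 73 for the sperm tail list and 11 of 39 for the acrosome list, and the leptonema-only block is 7 of 54 for the replication list and 4 of 24 for the meiotic entry list.

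The promoters of Ldhc, Actl7b and Spag6l are shown because they carry the letters that were more frequent among diplonema-only promoters, and they were chosen after those shares were seen. Ldhc lies at chr7:46861013-46861312 (plus strand), Actl7b at chr4:56741376-56741675 (minus strand) and Spag6l at chr16:16829314-16829613 (minus strand) of the same build. Capitals mark the MYB-type letters TAACNG and the X-box letters that RFX factors are known to bind, on either strand.
Ldhc: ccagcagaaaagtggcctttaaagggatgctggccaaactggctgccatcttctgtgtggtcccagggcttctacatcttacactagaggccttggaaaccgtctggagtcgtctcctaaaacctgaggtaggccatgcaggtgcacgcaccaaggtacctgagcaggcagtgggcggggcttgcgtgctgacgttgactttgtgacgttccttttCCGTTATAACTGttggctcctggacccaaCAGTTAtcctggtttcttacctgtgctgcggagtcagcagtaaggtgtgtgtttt
Actl7b: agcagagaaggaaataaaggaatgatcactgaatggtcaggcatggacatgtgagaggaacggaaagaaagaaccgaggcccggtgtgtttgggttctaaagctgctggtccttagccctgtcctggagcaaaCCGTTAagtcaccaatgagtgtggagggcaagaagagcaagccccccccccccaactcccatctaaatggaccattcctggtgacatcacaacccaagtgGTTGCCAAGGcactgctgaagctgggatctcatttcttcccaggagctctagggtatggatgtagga
Spag6l: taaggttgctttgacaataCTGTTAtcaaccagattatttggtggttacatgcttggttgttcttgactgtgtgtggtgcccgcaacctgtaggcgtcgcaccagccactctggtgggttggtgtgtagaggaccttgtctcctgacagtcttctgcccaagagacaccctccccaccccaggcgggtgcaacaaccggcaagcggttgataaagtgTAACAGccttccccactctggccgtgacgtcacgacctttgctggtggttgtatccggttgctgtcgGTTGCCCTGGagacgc
In Ldhc 3 matches to the MYB-type letters began within the 34 bases before the start, and 2 of them adjoined without sharing a base. Actl7b held 1 MYB-type match and 1 X-box match, and Spag6l 2 and 1. The 3 promoters had 9, 4 and 12 CG pairs. A match is a description of the letters in this window and says nothing of whether a factor was bound.

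Other diplonema-only members of the lists were regulators, division genes and piRNA genes. Of 26 regulators of the pachytene programme, 4 (15.4%) were diplonema-only, 14 were called in all 4 lists and none was leptonema-only. They were Rfx4 (an RFX factor), Gtf2a1l (a germ cell subunit of a general transcription factor), Spz1 and Trim69. Trim69 had 1415 bp and 1666 bp in diplonema and no peak elsewhere, and the other 3 had in addition 1 peak in late pachynema of experiment 2. Outside the rule for named genes, and looked at after their values were seen, the regulators Mybl1 and Rfx2 were called in all 10 lists, with Mybl1 at 1004 bp and 2041 bp for leptonema against 1442 bp and 2087 bp for diplonema, and Rfx2 at 226 bp and 903 bp against 847 bp and 3025 bp. Of 36 division genes, 3 were diplonema-only: Ccna1 (cyclin A1), Aurkc (a meiotic kinase) and Pttg1 (securin). Of 25 piRNA genes, 2 were, Piwil1 and Tdrd6, and 17 were called in all 4 lists. Of 161 genes of developmental regulator families, 4 were diplonema-only (Fgf8, Nkx6-2, Sox17 and Sox18) and 3 leptonema-only (Hoxa10, Foxd2 and Lhx4), shares of 2.48% and 1.86%. In experiment 2 alone, 53 of these 161 had a leptonema and no diplonema peak and 13 the reverse, against 8 and 6 in experiment 1. No replication-dependent histone gene of 66 was in either class, with 43 called in other combinations (3 with a leptonema and no diplonema peak and 9 the reverse in experiment 1, against 11 and 0 in experiment 2), and none of 14 genes of spermatid chromatin condensation was, with 7 not called.

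The genes with the widest peaks of each class were ranked by the mean percentile of their peak width within the 2 lists of their stage. On the leptonema side they included Rtkn2, Abtb2, Brca1, Mcam, Arhgef17, Esrp1, Dusp26, Rrm2b, Ttc7, Tshz3 and Glul. Rtkn2 peaks spanned 2379 bp and 2564 bp at leptonema, then 2278 bp and 3187 bp at zygonema, and no later list had one. Rrm2b, a ribonucleotide reductase subunit, had 1410 bp and 1606 bp in the leptonema lists. Esrp1, an epithelial splicing factor, had 1190 bp and 2298 bp in leptonema and no peak in the other 8 lists. On the diplonema side they were Pfkp, Prdx6b, Actl9, Ptchd3, Smpd5, Trim14, Slc2a3, Comp, Nab2, Cdkl1, Kcnc2 and Ucn. Pfkp, the platelet form of phosphofructokinase, had 2491 bp and 2699 bp in diplonema. Slc2a3, a glucose transporter, had 1914 bp and 2671 bp in diplonema and peaks in all 6 intermediate lists, which widened from 872 bp and 351 bp in zygonema to 1308 bp and 1619 bp in late pachynema.

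**Figure D2:**
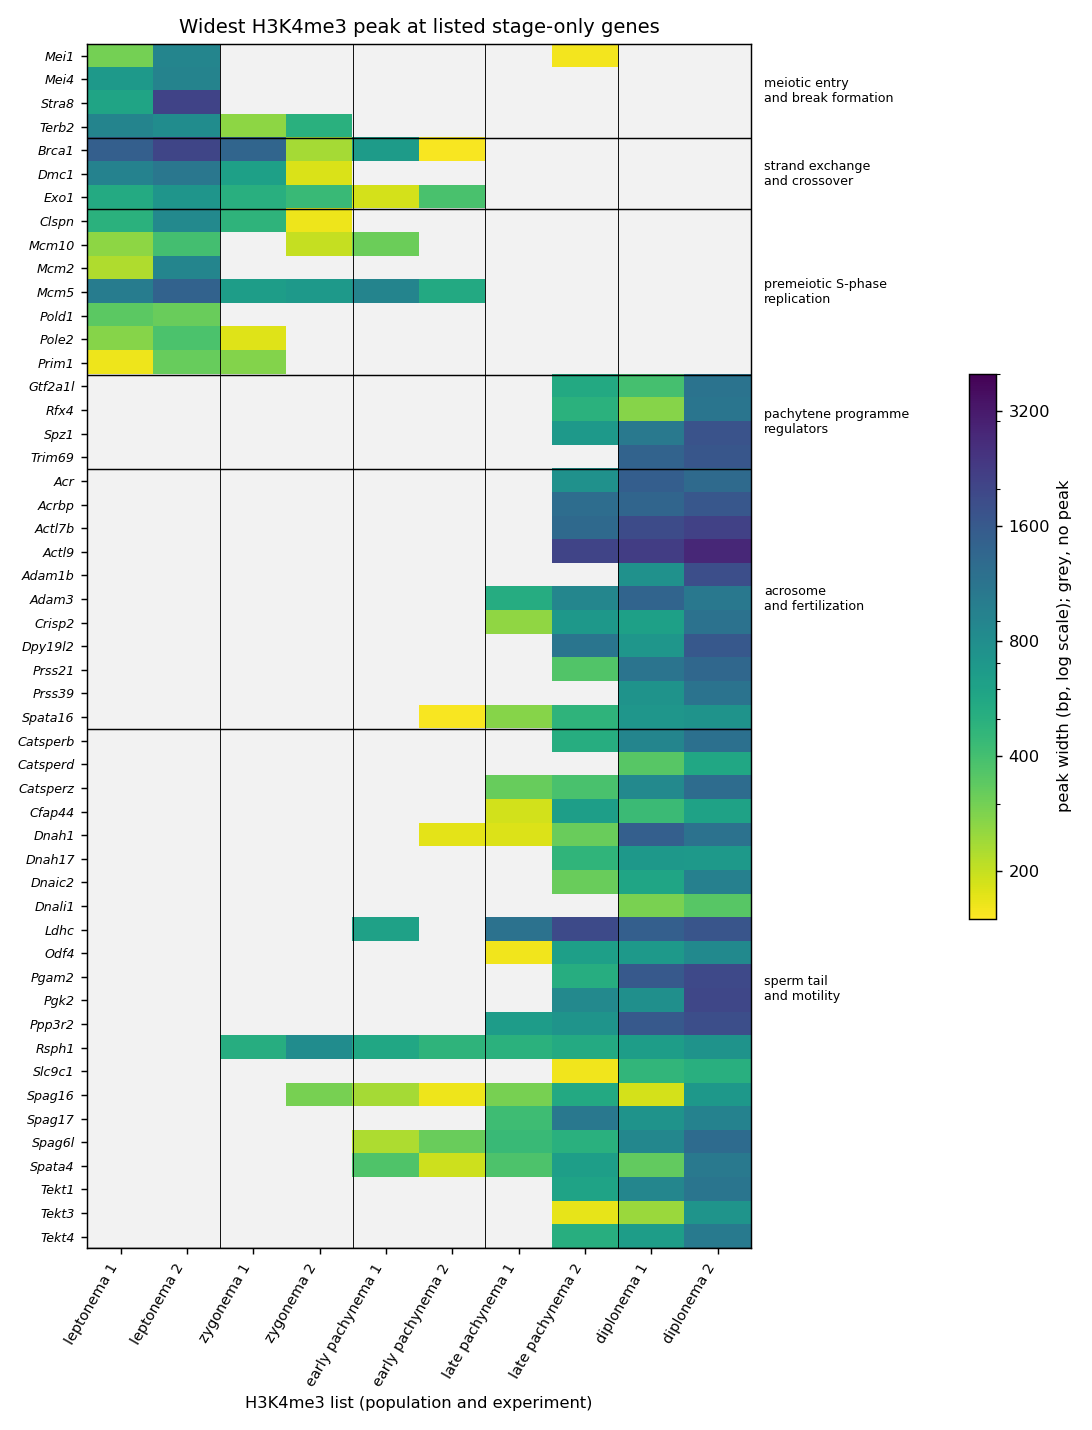
Width of the widest H3K4me3 peak (color, bp, log scale; grey, no peak) at leptonema-only and diplonema-only genes of 6 gene lists in each of the 10 lists, ordered by stage and experiment. Peaks of the upper 3 groups lie in leptonema, zygonema and early pachynema except Mei1, and those of the lower 3 mostly in diplonema and late pachynema of experiment 2.

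Promoter sequence was not used to choose the genes and differed between the classes. In a window of 300 bases (250 before the start) the median ratio of observed to expected CpG was 0.724 for leptonema-only, 0.493 for diplonema-only and 0.889 for genes called in all 4 lists, against 0.203 for genes called in none. Median GC content was 62.3%, 54.3%, 65.3% and 45.3%. Genes called in none have no site and were read at their most upstream start, unlike the other groups. CpG-rich promoters (ratio above 0.6 and GC above 55%) made up 64.3% of leptonema-only genes (95% exact binomial interval 61.0 to 67.5), 26.8% of diplonema-only genes (24.0 to 29.8) and 82.0% of genes called in all 4 lists. With protein-coding genes alone the shares were 69.7%, 33.7% and 83.7%. Diplonema-only promoters thus lay between those of genes with no peak and those of genes that kept one, with leptonema-only promoters closer to the latter. Neighboring genes can share a site (851 genes lay at 748 sites and 944 at 827), so promoters are not independent units and intervals cover counting error over genes only.

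**Figure D3:**
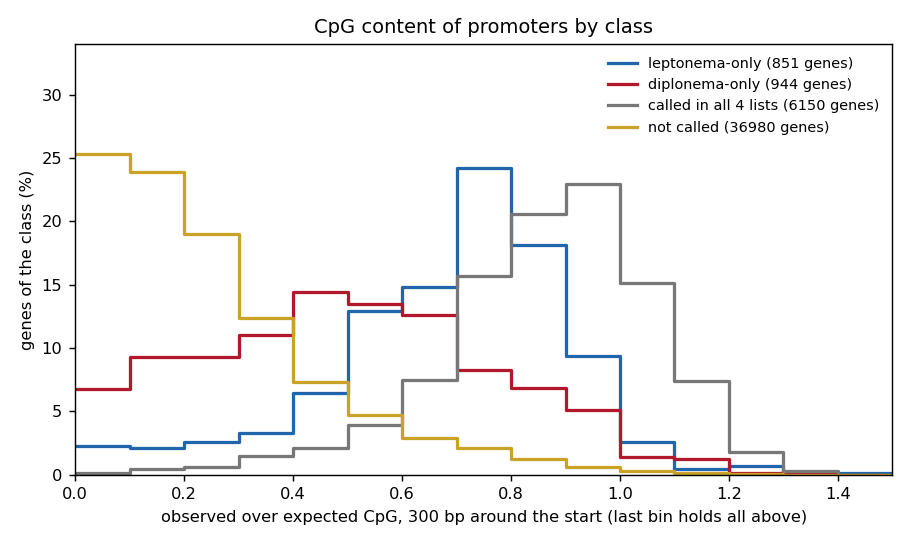
Distribution of the ratio of observed to expected CpG in 300 bp promoter windows (bins of 0.1 on the x axis, percent of the class on the y axis) for the 2 stage-only classes, genes called in all 4 lists and genes called in none. Diplonema-only genes spread over low and middle ratios with a median of 0.493, and leptonema-only genes peak at ratios of 0.7 to 0.8.

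Letters of 11 known binding motifs were searched on both strands in the same windows, and a base could belong to matches of more than 1 motif. MYB-type letters (TAACNG) were in 38.8% of diplonema-only promoters (35.6 to 42.0), 14.1% of leptonema-only promoters (11.8 to 16.6), 19.9% of promoters of genes called in all 4 lists and 23.9% of all promoters. Among lincRNA genes they were in 57.9% of 171 diplonema-only, 13.5% of 37 leptonema-only and 28.7% of all promoters. Base composition moves with this count, since low GC favors the letters. Within protein-coding promoters of 45 to 55% GC the shares were 43.6% (diplonema-only, n = 204), 15.3% (leptonema-only, n = 98) and 26.8% (all), at 55 to 65% GC they were 27.1% (n = 214), 17.5% (n = 286) and 19.6%, and at 65 to 75% GC they were 22.7% (n = 88), 9.17% (n = 240) and 12.0%. The difference between the classes was thus present within each GC band. Genes called in all 4 lists were at 31.5%, 24.1% and 15.8% in the same bands, above the leptonema-only shares. Above 55% GC the diplonema-only intervals (21.3 to 33.6 and 14.5 to 32.9) included the shares of genes called in all 4 lists. With the classes made from 1 experiment alone, the difference in share (24.7 percentage points) was 21.1 points within experiment 1 and 11.0 within experiment 2, and the difference in median CpG ratio (0.231) was 0.236 and 0.0678. By place, the diplonema-only share was highest for matches that began in the 50 bases before the start, 10.2% against 1.34% of leptonema-only and 3.82% of all protein-coding promoters.

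X-box letters were in 7.84% of diplonema-only protein-coding promoters (5.76 to 10.4), 1.49% of leptonema-only (0.718 to 2.73), 3.15% of genes called in all 4 lists and 2.3% of all protein-coding promoters. E2F-type letters (TTTCCCGC or TTTGGCGC) were in 4.23% of leptonema-only, 1.17% of diplonema-only, 3.76% of genes called in all 4 lists and 1.25% of all promoters. Among protein-coding genes the shares were 4.78%, 1.25%, 3.83% and 2.2%, with leptonema-only close to genes that kept a peak. Leptonema-only and diplonema-only protein-coding shares were 6.12% and 0.98% at 45 to 55% GC. They were 5.59% and 0.935% at 55 to 65% GC, and 3.75% and 3.41% at 65 to 75% GC. The STRA8-type letters CNCCTCAG were in 12.3% of leptonema-only, 6.14% of diplonema-only, 11.6% of genes called in all 4 lists and 7.58% of all promoters. The leptonema-only share was thus close to that of genes that kept a peak. GGGCGG (SP and KLF factors) was in 67.6% of leptonema-only and 36.3% of diplonema-only promoters, and CCGGAAG (ETS factors) in 10.6% and 8.05% against 25.6% of genes called in all 4 lists. The remaining 5 were the CRE letters TGACGTCA, the E-box letters CACGTG, the NRF1 motif, the CCAAT box and the TATAAA box, and their shares differed between the classes by at most 2.32 percentage points. No test was made of these shares.

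**Figure D4:**
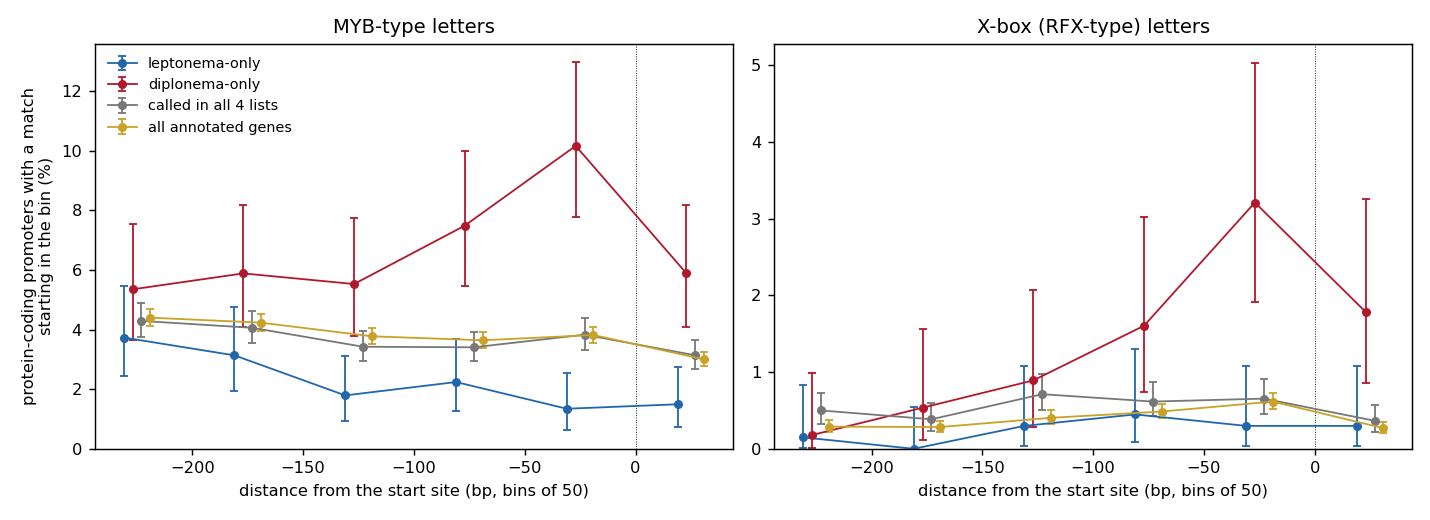
Share of protein-coding promoters (y axis, percent, 95% exact binomial intervals) with a match to the MYB-type or X-box letters that begins in each bin of 50 bp (x axis, distance from the start). Diplonema-only promoters reach 10.2% and 3.21% in the bin just before the start, above the other 3 groups.

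The 6 H3K4me3 lists of the stages in between were not used to choose the genes. Of leptonema-only genes, 59.1% and 48.4% had a peak in the zygonema lists of experiments 1 and 2, 26.7% and 8.23% in early pachynema, and 4.47% and 10.5% in late pachynema. Of diplonema-only genes the shares were 4.56% and 7.42%, 20.4% and 11.7%, and 28.5% and 76.6%. Genes called in all 4 lists were at 96.4% and 93.8%, 95.02% and 81.4%, and 87.4% and 97.8%. The leptonema-only share minus the diplonema-only share was 47.8 ± 9.58 percentage points (SD, n = 2 lists) in zygonema and -21.8 ± 32.1 (n = 4) in pachynema, a difference of 69.6 points (two-sided exact permutation test over lists, p = 0.133, where 0.0667 is the smallest p that 15 splits allow). The difference was 63.4 points within experiment 1 and 75.8 within experiment 2. Late pachynema differed most between experiments, and its lists held 5189 and 9124 peaks. With 2 lists against 4 the comparison did not pass 0.05, and the direction was the same in both experiments.

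Single genes followed several courses. Of the 851 leptonema-only genes, 337 (39.6%) had a peak in at least 1 zygonema list and in no pachynema list, and 253 (29.7%) had no peak in any of the 6 lists. Of the 944 diplonema-only genes, 854 (90.5%) had no zygonema peak, 493 (52.2%) had a peak in at least 1 late pachynema list but not in zygonema or early pachynema (90, or 9.53%, in both late pachynema lists), and 208 (22%) had none in the 6 lists. The same 3 patterns held for 30, 8 and 131 of the 6150 genes called in all 4 lists (at least 1 zygonema list but no pachynema list, none of the 6, and no zygonema list).

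**Figure D5:**
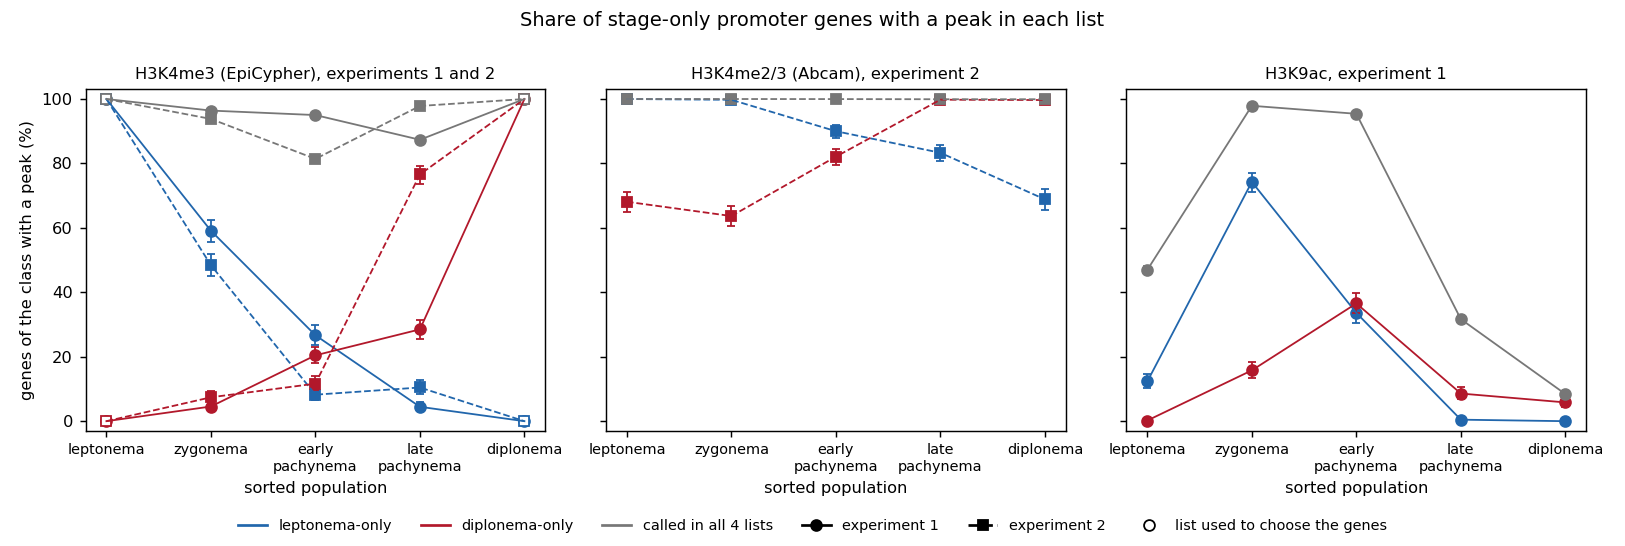
Share of each class (y axis, percent of genes; bars, 95% exact binomial intervals over genes) with a peak in each list of H3K4me3, H3K4me2/3 and H3K9ac, by stage (x axis) and experiment (circles and squares; open symbols, lists that defined the classes). In the H3K4me3 lists of zygonema the leptonema-only share is 59.1% and 48.4% and the diplonema-only share 4.56% and 7.42%, and in late pachynema the order is reversed (4.47% and 10.5% against 28.5% and 76.6%).

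The Abcam antibody, which also binds dimethylated lysine 4, gave longer lists (17561 to 30943 peaks) and a weaker contrast. All 851 leptonema-only genes had such a peak in leptonema, and the share was 99.8% at zygonema, 90.0% and 83.3% at the pachynema stages and 68.9% at diplonema. Diplonema-only genes were at 68.1%, 63.7%, 82.1%, 99.8% and 99.7%. Of all genes called in any of the 4 H3K4me3 lists, 95.65% had such a peak in leptonema and 91.75% in diplonema. The share of each class at its own stage is thus near this background, and the share at the other stage lies below it. The difference between the end stages was 31.1 points for leptonema-only genes and 31.6 points for diplonema-only genes, each from 1 list per stage and so with no replicate. For leptonema and diplonema of experiment 2 the study lists the same purity and starting chromatin for both antibodies. The Abcam lists thus share chromatin with lists that defined the classes and are not a separate sample of nuclei. Leaving out 1 H3K4me3 list at a time moved the leptonema-only value between 8.04 points (without diplonema of experiment 2) and 43.9 points (without leptonema of experiment 1), and the diplonema-only value between 19.5 points (without diplonema of experiment 1; 20.6 without leptonema of experiment 2) and 34.4 points. Without a peak of this antibody at the other stage were 265 leptonema-only genes (31.1%) and 301 diplonema-only genes (31.9%), and for lincRNA genes the shares were 48.6% and 60.2%. Stra8 peaks of this antibody spanned 2234 bp at leptonema and 1593 bp at zygonema, and there was none later, and Dmc1 kept one in all 5 stages, from 2415 bp in leptonema to 413 bp in diplonema. All 7 leptonema-only replication genes kept a peak of this antibody in diplonema. So did 68.9% of the leptonema-only class and 91.75% of all called genes. Of the 22 tail genes 9 had none in leptonema, among them Pgk2, Pgam2, Ldhc and Odf4, and of the 11 acrosome genes 4, Acr, Actl9, Prss39 and Spata16.

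H3K9ac is an acetylation of active chromatin, and these samples are named so by their titles, although their antibody label names H3K4me3. It had its longest list in zygonema (16003 peaks) and short ones in leptonema (2823), late pachynema (1727) and diplonema (516). Of leptonema-only genes 12.3% had an H3K9ac peak at leptonema and 74.3% at zygonema, followed by 33.6% and 0.47% at early and late pachynema and by no gene at diplonema. Diplonema-only genes were at 0.212%, 15.8%, 36.5%, 8.58% and 5.83%, and genes called in all 4 lists at 47.0%, 97.9%, 95.4%, 31.7% and 8.42%. The diplonema-only share was highest in early pachynema (7744 peaks) although the zygonema list was longer, while the other 2 classes were highest in zygonema. The short lists of the end stages limit what they can show. In early pachynema 13 of the 22 tail genes had an H3K9ac peak and 5 an H3K4me3 peak in the list of the same experiment. The matching shares were 62.6% and 59.4% of all called genes, and 36.5% and 20.4% of the diplonema-only class. More genes with H3K9ac than with H3K4me3 at this stage was thus a trait of the whole class. Pgk2 (698 bp), Pgam2 (388 bp), Odf4 (848 bp) and Acr of the acrosome list (1228 bp) were among the genes with H3K9ac and no H3K4me3 peak at that stage.

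The 2 classes also differed in the kinds of gene they held. Protein-coding genes made up 78.7% of leptonema-only, 59.4% of diplonema-only and 79.4% of called genes. Long intergenic noncoding RNA (lincRNA) genes were 4.35% (3.08 to 5.94) of leptonema-only and 18.1% (15.7 to 20.7) of diplonema-only genes, against 4.95% of called genes and 10.2% of all annotated genes. Antisense genes were 4.58% and 8.58%, against 5.17% of called genes. An antisense or divergent gene can lie at the site of its partner, and the peak then counts for both. Genes with a symbol ending in Rik, most of them without an assigned function, were 5.41% and 20.3%. Protein-coding members had a median of 5 annotated transcripts (leptonema-only) and 3 (diplonema-only), against 6 for genes called in all 4 lists.

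Symbol families were counted after the values had been seen and are given as a description. Of 15 axonemal dynein heavy chain genes (Dnah), 9 were diplonema-only and none leptonema-only or called in all 4 lists. Of 31 Cfap genes 10 were diplonema-only and none leptonema-only, of 33 Adam genes 8 and none, of 5 tektin genes 3 and none, and all 3 Tcp10 genes were diplonema-only. Tcp10a, Tcp10b and Tcp10c, and likewise Dnah7a, Dnah7b and Dnah7c among the 9, are near-identical copies whose reads may be shared, so these calls are uncertain. In the other direction 29 of 385 zinc finger genes (Zfp) were leptonema-only and 8 diplonema-only, and 3 of 10 Fzd receptor genes and 3 of 16 Klf genes were leptonema-only with none diplonema-only. Glycolytic genes outside the rule for named genes were also looked at after their values were seen. Gapdh was leptonema-only (263 bp and 681 bp, with a late pachynema peak of 522 bp in experiment 2), Ldha was diplonema-only (630 bp and 555 bp) and Pgam1 was called in all 10 lists. The checkpoint kinase genes Chek1 and Chek2, the CTCF paralog Ctcfl and the meiotic arrest gene M1ap were leptonema-only, with Ctcfl at 539 bp and 1073 bp in leptonema and Ctcf itself in all 10 lists.

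Peak width in the defining lists differed between the classes. Leptonema-only genes had median peak widths of 422 bp and 651 bp in leptonema of experiments 1 and 2, against 736 bp and 983 bp for genes called in all 4 lists. Diplonema-only genes had 720.5 bp and 1206 bp in diplonema, against 795.5 bp and 1274 bp. Within their lists these were the percentiles 31.1 and 46.4 for leptonema-only and 52.5 and 72.4 for diplonema-only genes. Leptonema-only peaks were thus narrower than the median peak of their lists. Diplonema-only peaks were wider than it, by little in experiment 1, and close in width to those of genes that kept a peak. The same lists define the classes and differ in length (9528 and 13095 peaks in leptonema, 6645 and 12071 in diplonema). The part of the rule and of list length in this contrast was not tested.

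Some genes had stage-only peaks of both stages at different start sites, and other start sites of the gene could keep a peak throughout. Of 800 genes with more than 1 kept site, 9 had a leptonema-only site and a diplonema-only site at different start sites: Iqsec1, Ntn1, Per1, Ppp1r13l, Ppp3ca, Sirt1, Slc12a7, Srebf1 and Trim8. In 7 of the 9 the leptonema-only site was the upstream one, and the exceptions were Sirt1 and Slc12a7. Per1, a circadian repressor, carried 297 bp and 738 bp of leptonema peak at chr11:69094779-69095516 and 835 bp and 1423 bp of diplonema peak at chr11:69098646-69100068, 3129 bp downstream. Ppp1r13l, an inhibitor of p53, had 909 bp and 152 bp at chr7:19359310-19360237 and 1341 bp and 2309 bp at chr7:19367891-19370199, 7653 bp downstream. The deacetylase gene Sirt1 had a site called in all 4 lists at chr10:63337475-63339970 and, on either side of it, a leptonema-only site (1104 bp and 943 bp) and a diplonema-only site (810 bp and 1638 bp). A leptonema-only site beside a site called in all 4 lists was seen in 53 genes and a diplonema-only site beside one in 44. Kdm1a, an H3K4 demethylase gene, was among the 53, with 693 bp and 254 bp at chr4:136577556-136578248, and Nf1 with 1631 bp and 1472 bp at chr11:79546271-79547901. Coordinates are mm10, counted from 1, and the genes of this paragraph were chosen after their values were seen.

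List length set limits on these counts. The leptonema lists held 9528 and 13095 peaks and called 9779 and 12011 genes, and the diplonema lists 6645 and 12071 peaks and 7691 and 12151 genes. The mean difference was 974 genes (10895 ± 1578 against 9921 ± 3154, SD, n = 2 lists each; two-sided exact permutation test, p = 1.0, where 0.333 is the smallest p that 2 lists against 2 allow). Within experiment 1 leptonema had 2088 genes more than diplonema and within experiment 2 it had 140 fewer, so the difference in number changed direction with the experiment. Genes called in leptonema and not in diplonema numbered 3578 and 1990 within experiments 1 and 2, and the reverse 1490 and 2130. The leptonema lists shared 78.9% of the genes of their union, the diplonema lists 62.9%, and pairs across stages 51.4% to 70.9%.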

How the data were processed

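Sorted nuclei were profiled by ChIP-Seq, and the deposited files used here are peak lists, 1 per sample, that give the start and end of each peak on chromosomes 1 to 19 and hold no score, count or depth. The authors aligned reads to mm10 with BWA 0.7.12 and called broad peaks with MACS2 2.1.2 (q threshold 0.1) against an input library of the same stage. A promoter without a peak can therefore carry the mark below the caller's threshold, and the depth behind each list is unknown. Versions are those of the submitters' processing notes and the study's methods.

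From these lists, peaks of the 4 leptonema and diplonema H3K4me3 lists were merged (gap 0 bp), and sites that overlapped a window of 500 bp either side of a GENCODE M21 TSS by at least 1 bp were kept. Other lists were looked up at the same sites, so a peak of theirs beside a site was not counted. Peak width is that of the widest peak of a gene at its kept sites. Differences between lists were tested by two-sided exact permutation. Shares have 95% exact binomial (Clopper-Pearson) intervals, which cover counting over genes only. Named genes were the class members of the gene lists, the sorting genes and the 12 members of each class with the widest peaks. Others are named as chosen after their values were seen. A gene that the rule names is not reported here. The members, gene lists and tests were chosen with earlier results of these data known. Printed promoters and their coordinates come from RefSeq on GRCm38.p6, and 1146 of 1793 member symbols had one there. Promoter features of called genes were read from the genome sequence at the annotated start nearest the centre of the site. Genes called in none of the 4 lists have no site and were read at their most upstream annotated start. Values for genes called in none, and for all promoters, thus rest partly or wholly on another choice of start. Alternatives comprised other windows, overlaps, merging, peak subsets, membership rules and left-out lists. Code was tested on simulated lists. Python 3.11.15, numpy 2.4.6, scipy 1.17.1 and matplotlib 3.10.9 were used. Experiment numbers are shared between stages. The differences between experiments 1 and 2 in leptonema and in diplonema had a correlation of -0.000387 over the 14241 genes called in any of the 4 lists. Leaving out genes called in none of these lists affects this value, so it cannot decide whether the numbers pair samples. The main tests took the lists as unpaired, and the experiment as a block was an alternative.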

Additional observations from a re-analysis of the deposited data

Results flagged for a closer look

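The difference in the number of genes called per list had opposite signs in the 2 experiments. Leptonema had 2088 more genes than diplonema in experiment 1 (9779 against 7691), and the difference was -140 in experiment 2 (12011 against 12151). It is given here because the sign of the difference between stages was opposite in the 2 experiments. The difference between experiments was not tested, since each holds 1 list per stage.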

How the results depend on the processing

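The counts rest on peak calls without scores, on 2 lists per stage and on lists of unequal length, and the cause of each change below was not tested. With 1 list left out at a time, leptonema-only genes (851) numbered 859 to 3457 and diplonema-only genes (944) 931 to 2041. The list behind each change was leptonema of experiment 1 (1977 leptonema-only genes without it), leptonema of experiment 2 (1473 diplonema-only genes), diplonema of experiment 1 (2041 diplonema-only genes) and diplonema of experiment 2 (3457 leptonema-only genes). Membership by 1 or more of the 2 lists gave 2062 and 2060 genes, within experiment 1 the counts were 3578 and 1490, and within experiment 2 1990 and 2130. Diplonema-only genes numbered 1646 with the same number of widest peaks from every list and 561 among protein-coding genes. The genes differed as well as the counts. Of the main members, peaks at least as wide as the median of their list kept 22.9% of leptonema-only and 52.2% of diplonema-only genes, equal numbers of widest peaks 33.3% and 86.2%, a window of 1000 bp 99.4% and 98.8%, and merging within 500 bp 99.9% and 99.8%.

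The difference in genes per list (974) was -350 with equal numbers of peaks, and -1255 to 3250 with 1 list left out (-164 without leptonema of experiment 2 and -1255 without diplonema of experiment 1). The 7 replication genes were 4 when a site had to cover 500 bp of the window, 25 within experiment 1, and 7 to 25 with 1 list left out (25 without diplonema of experiment 2). The 22 tail genes were 14 with wide peaks and 22 to 32 with 1 list left out, and the 11 acrosome genes 11 to 12. Leaving out a list loosens the rule, so the lower ends of these ranges were nearly fixed in advance.

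The difference in the Abcam share at leptonema-only genes (31.1 points) was 43.1 with wide peaks, 8.08 with equal numbers, 26.98 with peaks not merged, 27.5 for protein-coding genes, 44.4 for membership by 1 or more lists, 8.94 and 43.7 within experiments 1 and 2, and 8.04 to 43.9 with 1 list left out. At diplonema-only genes (31.6 points) it was 28.1 with peaks not merged, 23.4 for protein-coding genes, 19.5 for membership by 1 or more lists, 20.3 and 18.7 within experiments, and 19.5 to 34.4 with 1 list left out (19.5 without diplonema of experiment 1 and 20.6 without leptonema of experiment 2). For H3K9ac the leptonema-only value (12.3 points) was 15.2 with 500 bp covered, 18.1 with wide peaks, 4.61 with equal numbers, 5.92 for membership by 1 or more lists, 22.2 and 6.23 within experiments, and 6.12 (without leptonema of experiment 1) to 22.8 (without diplonema of experiment 2). The diplonema-only value (5.61 points) was 2.08 with wide peaks, 2.57 for membership by 1 or more lists, 2.54 within experiment 2, and 2.60 (without diplonema of experiment 1) to 5.69.

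The difference in TAACNG share (24.7 points) was 11.3 for membership by 1 or more lists, 11.0 within experiment 2, and 12.8 (without diplonema of experiment 1) to 27.3. The difference in median CpG ratio (0.231) was 0.0697, 0.0678 and 0.107 to 0.326 in the same order. With the most upstream start at a site these kept their direction. The fits within experiments, the upstream start and the GC bands were added after seeing the data. With the experiment as a replicate block, the contrast of zygonema with pachynema (69.6 points) had an exact p of 0.222 and the difference in genes per list an exact p of 1.0, and neither call changed. Of 99 named genes, between 65 (wide peaks) and 99 kept their class in each of the 12 planned settings with a count, and none changed to the opposite class. Settings with 1 list left out, or membership by 1 or more lists, loosen the rule, so genes mostly keep their class there by construction.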
